A study of Homo sapiens with 10 samples.

Results

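The cytokine genes examined in the bulk RNA-seq counts of irradiated renal proximal tubular epithelial cells (RPTECs) were *IL32*, *IL34*, *CSF1*, *CSF2*, *CSF3*, *IL15*, *IL7* and *IL23A*. They were chosen by gene symbol, and each symbol matched 1 identifier, so that the 8 members are 8 of 61587 rows of the count table. The cells were RPTEC/TERT1, an established human proximal tubule line immortalised with telomerase. Control cultures (n = 5) were mock-irradiated and irradiated cultures (n = 5) received 10 Gy of gamma irradiation, both without any other treatment, and polyA RNA was collected at day 7. Replicates, numbered 1 to 5 in each group, all come from a single line, so that the spread between them is a spread between cultures and not between donors. The study irradiated these cells to induce senescence and sought the genes that rose more than 2-fold.

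These cytokines act mostly on leukocytes. *CSF1* and *IL34* encode separate ligands of one receptor, CSF1R, which maintains monocytes and macrophages. *CSF2* encodes GM-CSF and *CSF3* encodes G-CSF, which drive the production and activation of myeloid cells and neutrophils. *IL15* and *IL7* encode ligands of the common gamma chain receptor family that sustain natural killer cells and lymphocytes. *IL23A* encodes a subunit that forms interleukin-23 only after pairing with the product of *IL12B*, and *IL32* encodes a pro-inflammatory cytokine that belongs to none of the classical families. Injured tubules are known sources of several of these factors, and the secretion of such cytokines is a recognised part of senescence.

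Expression of 4 of the 8 genes rose after irradiation, that of 1 fell, 1 did not pass the test and 2 had too few counts to be tested. *CSF2*, *IL23A* and *IL32* rose 22.1-fold, 18.1-fold and 12.2-fold, and *CSF1* rose 2.44-fold. *IL7* fell to 0.770 of its control level. *IL15* differed by less than its error, and *IL34* and *CSF3* had 32 and 8 counts over all 10 samples. These values come from edgeR's quasi-likelihood test across the 19006 genes with at least 200 counts in total, with replicate number as a block and Benjamini-Hochberg adjustment. Of all genes tested, 46.6% passed an adjusted p-value of 0.05, 23.9% as higher and 22.7% as lower. A rise of more than 2-fold at that threshold, which all 4 of the up-regulated members showed, was found for 5.26% of genes, and a fall of more than 2-fold, which no member showed, for 4.06%. *CSF2* reached the limit of 200 counts only through the irradiated samples (75 counts in the controls and 1461 in the irradiated samples together).

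Total counts per sample ran from 66269311 to 131555873, with irradiated replicate 2 the lowest and control replicate 2 the highest. Of 15 markers of proximal tubule and renal epithelium, 12 had at least 200 counts, of which 0 rose, 4 fell and 8 did not pass, *PAX8* and *KRT8* among the latter. Those that fell were *LHX1*, *CDH16*, *AQP1* and *PAX2*, by 1.20, 0.78, 0.61 and 0.27 on the log2 scale. An unnamed gene on the same strand covers 27.91% of the *AQP1* exon length, where reads may not have been assigned. The genes *LRP2*, *SLC34A1* and *HNF4A* were at or under 13 counts in every sample. Of 12 leukocyte markers, *CD3E*, *CD3D*, *MS4A1* and *FCGR3A* were at or under 2 counts in every sample. Of the 3 leukocyte markers with at least 200 counts, 2 rose and 0 fell. *ITGAM* reached that limit only through the irradiated samples (25 counts in the controls and 552 in the irradiated samples together). Summed over the leukocyte list, expression was 0.647 to 0.979 counts per 1000000 (CPM) in controls and 1.87 to 2.7 in irradiated samples. This difference was carried mainly by *ITGAM* (0.0436 and 1.24 CPM) and *CD14* (0.268 and 0.570 CPM). They rose by 4.71 and 1.09 on the log2 scale (adjusted p = 3.91e-05 and 0.000479 in edgeR), and the groups of neither overlapped. The pan-leukocyte gene *PTPRC* stood at 0.295 ± 0.102 CPM in controls and 0.353 ± 0.121 in irradiated samples (SD, n = 5 each; adjusted p = 0.283 in edgeR). Of 9 stromal and endothelial markers 5 rose, and their summed level went from between 21.7 and 28.6 CPM to between 38.8 and 50.4, while *COL3A1* and *LUM* were at or under 1 count in every sample. The rises were 2.48 for *CDH5*, 2.36 for *DCN*, 0.78 for *COL1A1*, 0.72 for *PECAM1* and 0.41 for *ACTA2* on the log2 scale, and the groups of *CDH5* (0.596 and 3.31 CPM) and *COL1A1* (18.8 and 32.2 CPM) did not overlap. Exons of genes on the opposite strand, *FAS* among them, cover 35.98% of the *ACTA2* exon length, so its reads may be missing or shared. The part of these marker levels in the cytokine values was not tested.

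The promoters of *IL23A*, *IL32* and *CSF2* are shown because these members had the largest rises and their windows were at hand. The windows come from RefSeq on GRCh38.p14, span 250 bases before to 50 bases after an annotated start, and were held for 3 of the 8 members. They were searched on both strands for the NF-κB consensus GGGRNWYYCC and for the AP-1 motif TGACTCA or TGAGTCA, with no mismatch allowed. In the consensus R is A or G, N is any base, W is A or T and Y is C or T. Both motifs are binding sequences of the transcription factor families most often linked to cytokine genes. The bases before the start on the plus strand are printed for *IL23A* (chr12:56338634-56338883) and *CSF2* (chr5:132073539-132073788), and a stretch of 30 bases is printed for *IL32* (chr16:3065295-3065324). Matches are in capitals.
IL23A: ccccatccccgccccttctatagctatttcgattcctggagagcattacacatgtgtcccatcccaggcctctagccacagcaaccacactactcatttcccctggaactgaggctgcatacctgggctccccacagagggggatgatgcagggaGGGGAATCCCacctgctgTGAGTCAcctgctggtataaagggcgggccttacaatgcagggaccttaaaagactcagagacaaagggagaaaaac
IL32: ctgtactcaGGGAGTTTCCCcagccagctg
CSF2: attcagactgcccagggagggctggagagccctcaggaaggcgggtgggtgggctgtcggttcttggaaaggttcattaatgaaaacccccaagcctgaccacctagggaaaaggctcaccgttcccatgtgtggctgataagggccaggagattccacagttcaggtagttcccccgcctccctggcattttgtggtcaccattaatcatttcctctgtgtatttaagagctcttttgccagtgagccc

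In *IL23A* the NF-κB match began 95 bases and the AP-1 match 77 bases before the RefSeq start at chr12:56338884. That start lies inside the GENCODE span of *IL23A*, which begins at position 56334174. In *IL32* 2 overlapping NF-κB matches, 1 base apart, covered 11 bases that begin 99 bases before the first of 2 RefSeq starts (chr16:3065304-3065314). This stretch lies inside the first exon of the longest-reaching GENCODE transcript of *IL32*, which begins at position 3065297. No AP-1 match was present in either *IL32* window, and no exact match of either motif was present in the *CSF2* window. Sequences that depart from these strings were not counted, so a window without a match may still hold a binding site. Among 35116 promoter windows of 300 bases, 5.91% held an NF-κB match, 4.95% an AP-1 match and 0.262% both. A match is a description of the letters only, and binding was not measured in these samples.

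On GRCh38 the gene *IL32* spans chromosome 16 from 3065297 to 3082192, and it has 35 annotated transcripts, whose reads are summed here. Its expression in control replicates 1 to 5 was 11.2, 26.5, 20.9, 24.7 and 15 CPM after normalisation by the TMM method. In irradiated replicates 1 to 5 it was 244.2, 147.9, 251.0, 288.0 and 241.9 CPM. The lowest irradiated sample was thus several times above the highest control, and the groups were far apart. edgeR gave a rise of 3.61 on the log2 scale (SE 0.26, adjusted p = 5.64e-05), with a 95% confidence interval of 8.0-fold to 18.7-fold. Within pairs the rise ran from 5.59-fold in replicate 2 to 21.7-fold in replicate 1. A U1 pseudogene on the same strand covers 4.02% of the *IL32* exon length, where reads may not have been assigned.

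*IL23A* lies on chromosome 12 from 56334174 to 56340410. Control replicates 1 to 5 had 0.795, 1.57, 1.38, 1.38 and 0.924 CPM, from 65 to 220 counts each. Irradiated replicates had 20.8, 12.9, 34.8, 23.6 and 21.2 CPM, from 867 to 3225 counts each. All irradiated samples were well above all controls, and replicate 3 was the highest of them. This was a rise of 4.18 on the log2 scale (SE 0.25, adjusted p = 3.16e-05 in edgeR; 95% confidence interval 12.1-fold to 27.3-fold). The other subunit needed for interleukin-23, encoded by *IL12B*, had 5 counts over the control samples and 6 over the irradiated samples. No sample held more than 3 counts of it, against at least 867 of *IL23A* after irradiation.

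*CSF2*, the gene for GM-CSF, lies on chromosome 5 from 132073789 to 132076170. Its counts in control replicates 1 to 5 were 4, 16, 9, 35 and 11, which gives 0.0489, 0.114, 0.0897, 0.325 and 0.0924 CPM. Irradiated replicates 1 to 5 had 393, 55, 339, 423 and 251 counts, or 3.97, 0.821, 3.66, 4.61 and 2.84 CPM. The groups did not overlap, but irradiated replicate 2 was less than 3-fold above the highest control. On the log2 scale *CSF2* rose by 4.47 (SE 0.38, adjusted p = 9.82e-05 in edgeR; 95% confidence interval 12.0-fold to 40.6-fold). The pair ratios varied from 7.17-fold in replicate 2 to 81.1-fold in replicate 1, where the control rests on 4 counts. *CSF2* thus had the largest fitted fold change of the 6 tested members, and in controls the lowest level of them.

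*CSF1*, the gene for the macrophage colony-stimulating factor, lies on chromosome 1 from 109910242 to 109930992. Control replicates 1 to 5 had 17.1, 22.6, 25.1, 21.2 and 19.5 CPM. Irradiated replicates 1 to 5 had 46.0, 49.8, 47.1, 56.0 and 56.8 CPM. Values within each group lay close together and the groups were apart in every sample. *CSF1* rose by 1.28 on the log2 scale (SE 0.09, adjusted p = 5.47e-05 in edgeR; 95% confidence interval 2.10-fold to 2.83-fold), and pair ratios ran from 1.88 to 2.92. In replicate 2, where *IL32*, *IL23A* and *CSF2* had their smallest pair ratios, the ratio of *CSF1* was 2.20.

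*IL34*, which encodes the other CSF1R ligand, lies on chromosome 16 from 70579895 to 70660682. It had 2, 3, 4, 2 and 3 counts in control replicates 1 to 5 and 9, 0, 0, 5 and 4 in irradiated replicates. The 14 control counts have an exact Poisson 95% interval of 7.65 to 23.5 and the 18 irradiated counts one of 10.7 to 28.4, which cover counting error only. The groups overlap, and a difference was not detectable at this depth. The samples with 0 counts allow up to 0.0448 CPM in irradiated replicate 2 and 0.0324 in replicate 3, taking 3 counts as the limit.

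*CSF3*, the gene for G-CSF, lies on chromosome 17 from 40015361 to 40017813 and was near absent. Controls had 0, 1, 1, 1 and 0 counts and irradiated samples 3, 1, 0, 0 and 1. These 3 and 5 counts have exact Poisson 95% intervals of 0.619 to 8.77 and 1.62 to 11.7. The 0 counts of *CSF3* allow at most 0.0367 CPM in the controls and 0.0324 to 0.0327 CPM in the irradiated samples concerned. With every gene of at least 1 count tested, *IL34* and *CSF3* had adjusted p-values of 0.83 and 0.78 in edgeR. Of the 3 colony-stimulating factors, 2 therefore rose and the third could not be assessed.

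*IL7* lies on chromosome 8 from 78675743 to 78805523. Its expression was 5.87, 6.34, 6.24, 6.38 and 6.87 CPM in control replicates 1 to 5. It was 4.88, 5.09, 4.34, 4.43 and 5.77 CPM in irradiated replicates 1 to 5. The highest irradiated value lay just under the lowest control value, and the irradiated sample was lower in 5 of 5 pairs. edgeR put the log2 fold change at -0.38 (SE 0.08, adjusted p = 0.00656), with pair ratios between 0.695 and 0.839. Exons of genes on the opposite strand, *ZC2HC1A* among them, cover 16.3% of the *IL7* exon length, and the sources used here do not state whether counting used strand, so reads in that stretch may be missing or shared.

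*IL15* lies on chromosome 4 from 141636583 to 141733987. Controls had 5.64, 6.22, 8.05, 7.01 and 6.27 CPM in replicates 1 to 5 and irradiated samples 7.23, 7.02, 6.45, 6.87 and 7.28. All irradiated values fell within the range of the controls, with 3 pairs higher and 2 lower. In edgeR the log2 fold change was 0.08 (SE 0.11, adjusted p = 0.574), and its 95% confidence interval of 0.890-fold to 1.25-fold bounds any change at these sample numbers. The interval does not show that the level stayed the same.

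**Figure D1:**
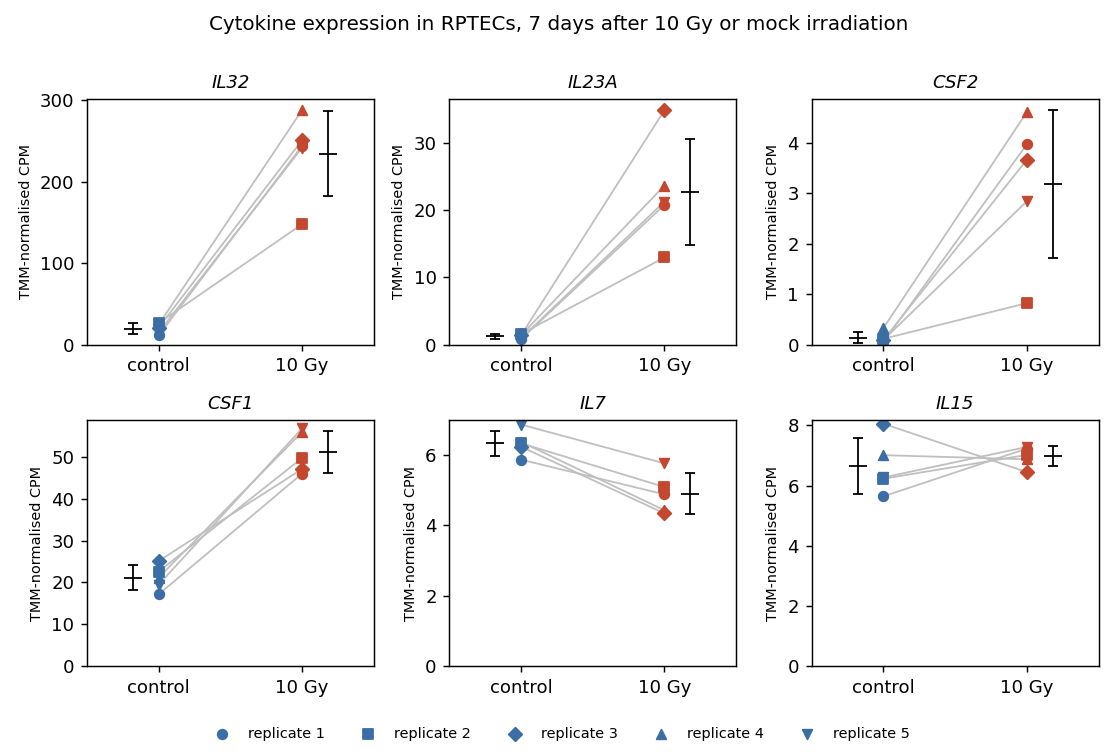
Expression of the 6 members with at least 200 counts, in TMM-normalised CPM on linear axes from 0, in control and irradiated (10 Gy) RPTECs. Points are samples with a symbol for each replicate number, grey lines join pairs, and black bars give the mean ± SD of 5 samples. *IL32*, *IL23A*, *CSF2* and *CSF1* rise in every pair, with irradiated replicate 2 (square) lowest for the first 3 of these, *IL7* falls in every pair, and the groups overlap for *IL15*.

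Samples of both groups were apart without overlap for 5 of the 8 members, 4 with irradiated above control samples and *IL7* below. Over all genes tested, this held for 14.6% upwards and 12% downwards. Irradiated replicate 2 was the lowest irradiated sample for *IL32*, *IL23A* and *CSF2* and had the lowest depth. It ranked in the middle for *CSF1* and second highest for *IL7*. The part of depth in these values was not tested. Without replicate 2 the log2 fold changes of *IL32*, *IL23A* and *CSF2* were 3.90, 4.49 and 4.80. Proliferation genes moved with the groups, and also among the controls. The summed level of 10 such genes was 253.7 and 236.1 CPM in control replicates 1 and 3, 653.0 to 694.5 in the other controls and 129.7 to 179.9 in irradiated samples. With pairs 2, 4 and 5 only, the log2 fold changes of *IL32*, *IL23A*, *CSF2* and *CSF1* were 3.33, 3.83, 3.89 and 1.35, and that of *IL7* was -0.38. All had adjusted p-values under 0.05 in edgeR. Pairs 2, 4 and 5 keep the controls with the higher proliferation level, furthest from the irradiated samples. The part of proliferation in the cytokine changes was not tested and cannot be told apart from that of irradiation here. Since these are bulk RNA values, more cells expressing a gene and more RNA of it per cell cannot be told apart.

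Levels were compared between members per kilobase of exon, as TMM-normalised CPM divided by the union exon length. In irradiated samples the level of *IL32* was highest at 73.1 ± 16.2 CPM per kb, then *IL23A* at 19.3 ± 6.70, *CSF1* at 9.76 ± 0.95 and *CSF2* at 4.03 ± 1.86 (SD, n = 5 each). *IL7* at 1.45 ± 0.17 and *IL15* at 0.885 ± 0.043 followed, and *IL34* and *CSF3* were under 0.05 CPM per kb in every sample. Only the ranges of *CSF2* and *IL7* overlapped among neighbours in this order down to *IL15*. In the control samples the order differed. *IL32* (6.12 ± 2.01) and *CSF1* (4.03 ± 0.58) overlapped at the top, *IL7* followed at 1.87 ± 0.11, and *IL23A* (1.03 ± 0.28) and *IL15* (0.843 ± 0.118) overlapped below it. *CSF2*, at 0.170 ± 0.139 CPM per kb, was the least expressed of the 6 in controls. *IL23A* thus moved in this order from the level of *IL15* to a mean above that of *CSF1*. The overlaps depend on the length used. Divided by the longest transcript instead, irradiated *IL23A* (12.5 to 33.6) and *CSF1* (11.5 to 14.2) overlapped, and control *IL32* (8.13 to 19.2) and *CSF1* (4.29 to 6.29) did not.

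**Figure D2:**
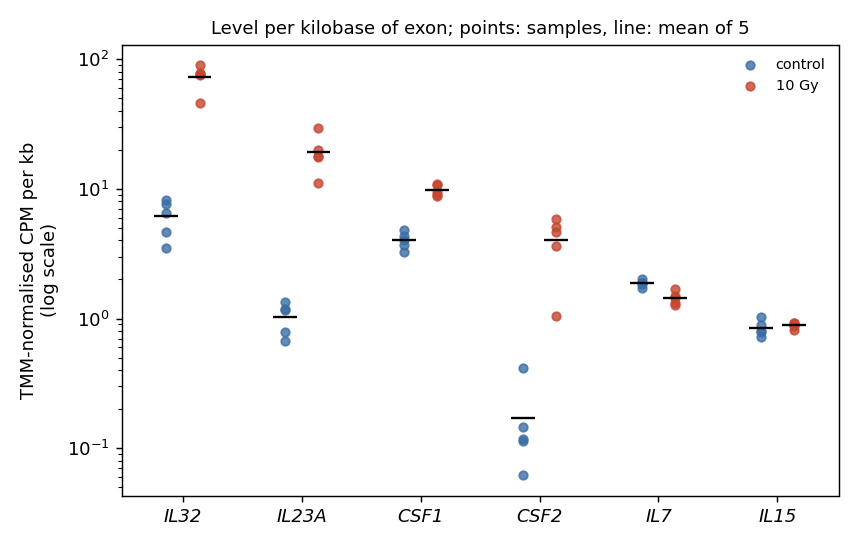
Level of 6 members per kilobase of union exon length, in TMM-normalised CPM per kb on a log axis. Points are the 5 control and 5 irradiated samples and lines the group means. *IL32* is highest in irradiated samples at 73.1, and *CSF2* goes from 0.170 to 4.03.

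For each member, the 3 tested genes with the most similar pattern were taken as those with the smallest root mean square difference of log2 CPM, centred per gene, over the 10 samples. This distance depends largely on the fold change, so near genes are mostly genes with a similar fold change. Shared regulation was not tested. For *IL32* these were *TNFAIP3* (difference 0.17), *TNF* (0.21) and *BIRC3* (0.21), with log2 fold changes of 3.67, 3.71 and 3.37. For *CSF1* they were *TLR2* (0.10), *CX3CL1* (0.10) and *ZMAT3* (0.11). The gene nearest to *CSF2* was *AOX1* (0.35), followed by *CXCL5* (0.45) and *RPL6P22* (0.47). *IL23A* was nearest to an unnamed gene, ENSG00000283265 (0.26), then *DCLK1* (0.27) and *MFAP5* (0.34). *IL7* was nearest to *INTS12*, *DICER1* and *CENPC* (0.08 each), and *IL15* to *SLC30A1* (0.06), *TAF1D* (0.06) and *ZC3H6* (0.07). Among the members themselves, *IL32* and *IL23A* differed by 0.36 and *IL7* and *IL15* by 0.27, whereas *IL32* and *CSF1* differed by 1.21.

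Receptors of these cytokines were mostly near or at 0. Of 17 receptor chains and binding partners, 5 had at least 200 counts, 3 of these rose and 0 fell in edgeR. DESeq2, limma-voom and edgeR on every gene of at least 1 count also found 0 lower. In edgeR on the genes with at least 200 counts, 0 of the 5 were lower at an unadjusted p-value of 0.05, and *IL12RB2* alone had a negative log2 fold change there. *IL15RA*, whose product binds interleukin-15 and presents it to neighbouring cells, stood at 1.52 ± 0.42 CPM in controls and 3.29 ± 0.56 in irradiated samples (SD, n = 5 each). Its control values were 1.05, 1.51, 1.85, 2.01 and 1.18 CPM and its irradiated values 2.99, 2.46, 3.70, 3.79 and 3.52, without overlap. This was a rise of 1.13 on the log2 scale (SE 0.15, adjusted p = 0.000686 in edgeR). The receptor chain thus rose while its ligand *IL15* did not pass the test.

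The signalling chains that pair with the *IL15RA* product were scarce, with at most 6 counts of *IL2RB* and 2 of *IL2RG* in any sample. An unnamed gene on the same strand covers 51.3% of the *IL2RG* exon length, where reads may not have been assigned. *CSF1R*, the receptor for the *CSF1* and *IL34* products, had 13 to 15 counts in control and 7 to 22 in irradiated samples. *PTPRZ1*, also on the receptor list, had at most 2 counts in any sample. *CSF2RA*, which encodes the binding chain for GM-CSF, had 0 counts in all samples, which allows at most 0.0448 CPM, and *CSF2RB* had at most 2. *CSF2RA* lies in the pseudoautosomal region, where reads shared by the copies on X and Y may be left out. *CSF3R* had at most 3 counts and *IL7R* at most 10. *IL23R* had 0 counts in all controls and at most 4 in irradiated samples, and *IL12RB1* at most 8.

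Among the receptors and partners with high counts, *SDC1*, which encodes a proteoglycan that binds interleukin-34, stood at 167.5 ± 26.1 CPM in controls and 166.7 ± 11.9 in irradiated samples (SD, n = 5 each; adjusted p = 0.954 in edgeR). The integrin genes *ITGAV* and *ITGB3*, whose products have been reported as partners of interleukin-32, rose by 0.35 and 0.23 on the log2 scale (adjusted p = 0.00973 and 0.00414 in edgeR), each higher in 5 of 5 pairs. The *ITGB3* call was lost without the replicate block (adjusted p = 0.14). *IL12RB2* had a log2 fold change of -0.15 (adjusted p = 0.658).

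**Figure D3:**
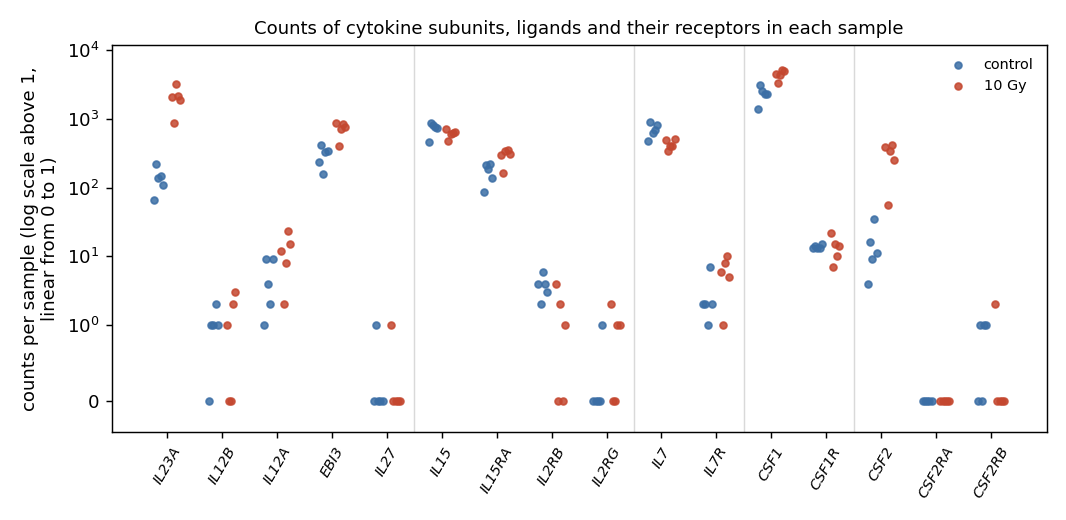
Counts per sample, not normalised, of cytokine subunits, ligands and receptor chains, on an axis that is linear from 0 to 1 and logarithmic above. Points are 5 control and 5 irradiated samples, and vertical lines part the groups of partners. *IL23A* reaches 867 to 3225 counts after irradiation while its partner *IL12B* stays at 3 or fewer, and the receptor genes *CSF1R*, *IL7R* and *CSF2RB* hold 22 counts or fewer.

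Cytokines of other families were compared as a group of 29 interleukins and haematopoietic factors outside the IL-1 and IL-6 families. Only 3 of the 29 had at least 200 counts, and 5 had 0 counts in every sample. *KITLG*, which encodes stem cell factor, had a mean of 135.9 ± 22.6 CPM in controls and 306.7 ± 39.5 in irradiated samples (SD, n = 5 each). It rose by 1.18 on the log2 scale (SE 0.07, adjusted p = 2.50e-05 in edgeR). *EBI3*, a subunit shared by interleukin-27 and interleukin-35, had control values of 2.85, 2.95, 1.58, 3.05 and 2.87 CPM and irradiated values of 8.65, 5.97, 7.77, 9.16 and 8.72. These did not overlap, and the rise was 1.61 on the log2 scale (SE 0.16, adjusted p = 0.00022 in edgeR). As with *IL23A*, its partners were scarce, with at most 1 count of *IL27* and 23 of *IL12A* in any sample. *IL17D* did not pass (log2 fold change -0.13, adjusted p = 0.402).

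With every gene of at least 1 count tested, 4 of these cytokines were higher, as were 4521 of the 44263 genes in that fit. The 2 added were *TSLP*, an epithelial cytokine that signals through the receptor chains IL7R and CRLF2, with 0, 1, 2, 1 and 1 counts in controls and 6, 4, 10, 10 and 7 in irradiated samples (adjusted p = 0.0011 in edgeR), and *IL12A* (1 to 9 and 2 to 23 counts, adjusted p = 0.0296). The groups of *TSLP* did not overlap and those of *IL12A* did.

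Receptors for most of these cytokines signal through JAK kinases and STAT transcription factors, which SOCS proteins and CISH inhibit. Of 19 such genes 18 were tested, and 7 rose, 4 fell and 7 did not pass. *STAT5A*, a transcription factor activated by receptors for GM-CSF, interleukin-7 and interleukin-15, showed the largest rise of the list, with 4.67 ± 1.26 CPM in controls and 13.9 ± 2.8 in irradiated samples (SD, n = 5 each). edgeR gave a difference of 1.59 on the log2 scale (SE 0.15, adjusted p = 0.00016), with the lowest irradiated sample at 10.4 CPM and the highest control at 6.69. Its neighbour and paralogue *STAT5B* had a log2 fold change of 0.04 (adjusted p = 0.433), and 6.5% of the *STAT5A* exon length lies under *STAT5B* exons on the opposite strand. *SOCS2*, *JAK1*, *STAT6*, *JAK2* and *TYK2* rose by 0.24 to 0.70 on the log2 scale.

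The feedback inhibitors *SOCS3* and *CISH* fell, whereas *SOCS2* rose by 0.70 on the log2 scale. *SOCS3* had 101.8, 64.3, 164.3, 88.9 and 86.8 CPM in control replicates 1 to 5 and 39.8, 45.4, 31.4, 37.2 and 36.7 CPM in irradiated replicates. All irradiated samples were below all controls, and control replicate 3 was the highest. In edgeR its log2 fold change was -1.34 (SE 0.23, adjusted p = 0.00224), -1.08 without replicate 3 and -1.02 with pairs 2, 4 and 5 only. *CISH* stood at 16.5 ± 7.8 CPM in controls and 7.10 ± 0.93 in irradiated samples (SD, n = 5 each). Its change was -1.11 on the log2 scale (SE 0.23, adjusted p = 0.00542 in edgeR), -0.85 without replicate 3 and -0.70 with pairs 2, 4 and 5 only. *SOCS1* and *PIAS1* also fell, by 0.38 and 0.25 on the log2 scale, and *STAT3* did not pass (log2 fold change -0.10, adjusted p = 0.18).

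**Figure D4:**
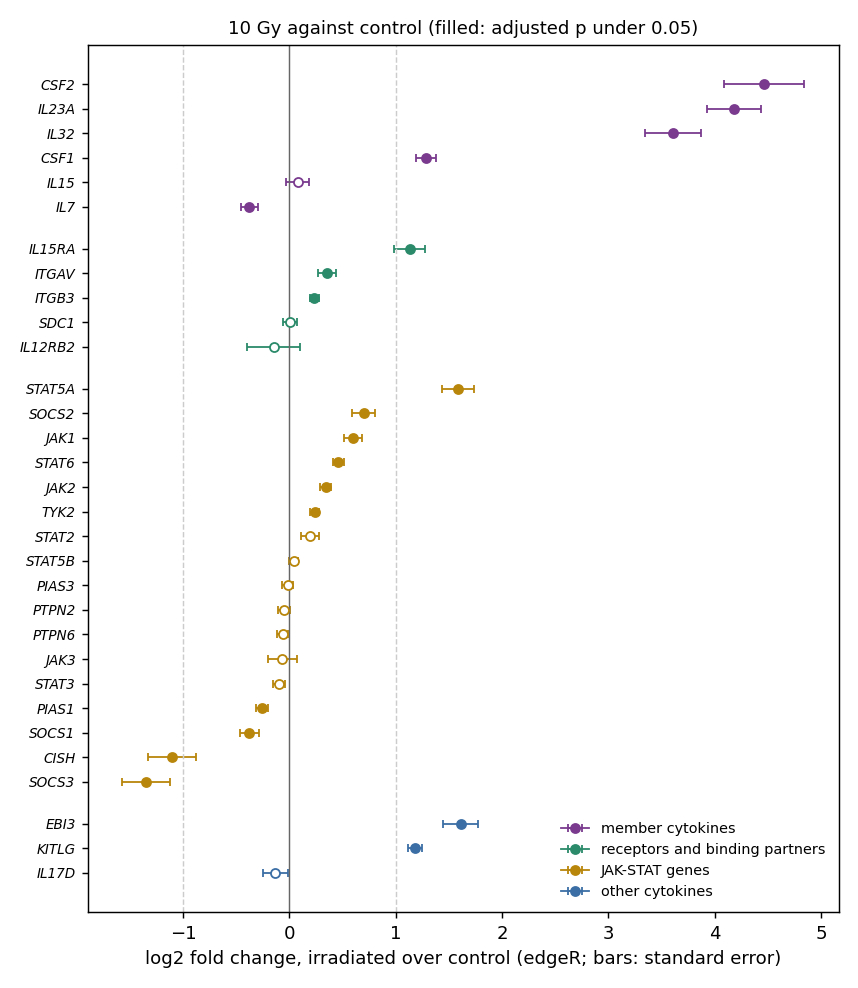
Log2 fold change of irradiated over control RPTECs from edgeR for the members, receptors, other cytokines and the JAK-STAT genes reported here, all with at least 200 counts, with bars for the standard error. Filled points passed an adjusted p-value of 0.05 and dashed lines mark 2-fold. *CSF2*, *IL23A* and *IL32* lie beyond 3.5, and *SOCS3* and *CISH* lie below -1.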

How the data were processed

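Bulk polyA RNA-seq of 5 control and 5 irradiated RPTEC/TERT1 cultures was analysed. Per the paper's methods, the authors used Trim-Galore for adapters and STAR for alignment to GRCh38 and gene counting, and the deposited values are raw counts per gene without normalisation or filtering. The annotation release and the strand setting are not given in the sources used here. The cell line field of the labels runs from RPTEC/TERT1 upwards in steps of 1, and all samples were taken as RPTEC/TERT1, as in the series' design text. The library kit differs between the labels and the paper's methods.

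Groups and replicate numbers were taken from the sample titles. The test was edgeR 4.0.16 in R 4.3.3 (TMM, glmQLFit, glmQLFTest) over 19006 genes with at least 200 counts in total, with a block for replicate number as the authors' DESeq2 model had, and Benjamini-Hochberg adjustment over all of them. Samples of the same number were treated as pairs, following the replicate term of the authors' model. Deviations from the group means correlated at 0.22 to 0.51 within each number and at -0.35 to 0.32 between numbers. These ranges overlap, so the correlations do not settle the pairing. Standard errors (SE) were obtained as log2 fold change over root F. Pattern distances used log2 CPM with a prior count of 2. Coordinates and exon lengths came from GENCODE 44 on GRCh38. Figures were drawn with matplotlib 3.10.9. The test was tested on simulated data without a replicate effect, and the outcome is not reported here.

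Depth was 66269311 to 131555873 counts per sample, so the spread between replicates sets the precision except for genes near or under 200 counts. No replicates were treated as one library. The closest in each group were replicates 4 and 5, which differed by a chi-square per gene of 15.1 in controls and 8.50 in irradiated samples. Other replicates of a group differed by 57.1 to 213 in controls and 40.4 to 88.5 in irradiated samples. Whether replicates 4 and 5 are less independent than the others was not tested. Genes were named by rule as all members, genes of the receptor, JAK-STAT and other cytokine lists that passed with a change of over 2-fold, receptor chains with counts, and the 3 nearest genes by pattern. Further genes of these lists and the cell type markers named were chosen after their values were seen. Single values of some listed genes are not reported here, although the list counts and sums include them. The members and gene lists were chosen with earlier results of these data known. Alternatives were DESeq2 1.42.0, limma-voom (limma 3.58.1), 3 other normalisations, 2 other count filters, no replicate block, each pair left out, pairs 2, 4 and 5 only, and, for levels per length, the longest transcript.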

Additional observations from a re-analysis of the deposited data

Results flagged for a closer look

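A sample lay apart from the other 4 of its group by Dixon's criterion in 2 of 24 groups of values, where chance gives 1.2. *CSF2* stood at 0.325 CPM in control replicate 4, against 0.0489 to 0.114 in the other controls. Without replicate 4 its log2 fold change was 4.75 (adjusted p = 0.000735 in edgeR). *EBI3* stood at 1.58 CPM in control replicate 3, against 2.85 to 3.05 in the other controls, and its log2 fold change without replicate 3 was 1.46 (adjusted p = 0.000193 in edgeR). The cause was not tested for either sample.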

How the results depend on the processing

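The 6 tested members kept their direction and their side of the threshold in all 14 alternatives, with log2 fold changes of 3.33 to 3.90 for *IL32*, 3.83 to 4.49 for *IL23A*, 3.89 to 4.80 for *CSF2*, 1.21 to 1.38 for *CSF1*, -0.45 to -0.33 for *IL7* and 0.00 to 0.18 for *IL15*. Without the replicate block 3640 genes were higher and 3366 lower, against 4550 and 4307 with it, and of the listed genes only *ITGB3* lost its call. Scaled by total counts alone, 38.0% of the genes called were higher, against 51.4% by TMM, the median of all genes was -0.09 and *STAT3* was called lower (adjusted p = 0.0299). With a minimum of 1 count, 4 other cytokines were higher instead of 2, and with edgeR's filterByExpr 2 were higher. *STAT2* was called higher without replicate 3 and with pairs 2, 4 and 5 only (adjusted p of 0.0325 and 0.00267), and *SOCS1* lost its call without replicate 5 (0.0513).

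Divided by the longest transcript instead of the union of exons, levels per kb in control and irradiated samples were 14.2 and 169.9 for *IL32*, 5.28 and 12.8 for *CSF1*, 3.14 and 2.43 for *IL7* and 1.10 and 1.16 for *IL15*, since the lengths are shorter. The order of the means was the same, but *IL23A* and *CSF1* then overlapped in irradiated samples and *IL32* and *CSF1* no longer did in controls. Depth limits *IL34*, *CSF3* and most receptors, which hold a few counts per sample.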
